A study of Drosophila melanogaster with 6 samples.

Results

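Neuropeptide receptors are G protein-coupled receptors through which neurons and other cells read peptides released by neurons and endocrine cells. Binding of the peptide activates a heterotrimeric G protein, which in turn moves cAMP or calcium and so changes how excitable a cell is. In *Drosophila* these receptors carry signals of hunger, satiety, stress, sleep and mating, and in sensory neurons several of them tune sensitivity to the state of the animal. The receptor genes described here were chosen by name, as 37 FlyBase symbols of peptide and protein hormone receptors, and all 37 were found among the 17489 genes counted. By structure, 29 belonged to the rhodopsin-like class (class A), 4 to the secretin-like class (class B) and 4 to the class of receptors with a large leucine-rich outer domain (the LGR class). They lay on chromosome arms 3R (13 genes), 3L (10), X (7), 2R (5) and 2L (2) of the BDGP6 assembly.

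The counts came from translating mRNA affinity purification (TRAP), in which ribosomes with an epitope-tagged Rpl3 subunit are pulled out of lysed heads with an antibody to the tag, together with the mRNAs they were translating. All libraries were of male *Gr5a>UAS-Rpl3-3XFLAG* flies, in which *Gr5a*-GAL4 drives the tagged protein in sweet-taste neurons, and each of 3 replicates per diet pooled 300 heads. Flies ate a control diet with 5% sucrose (CD + OSMI, replicates 1 to 3) or a sugar diet with 30% sucrose (SD + OSMI, replicates 4 to 6) for 7 days, from day 5 to day 12, and OSMI-1, which inhibits the nutrient sensor OGT, was added to either food at 10 µM in DMSO. The comparison therefore asked what the sugar diet did to receptor mRNAs while OGT was inhibited, and a diet without the inhibitor was not analysed here.

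Libraries held 13324513 to 16122009 counts, and 11915 genes had at least 10 counts in at least 3 libraries and were tested. The median log2 fold change of all tested genes was −0.0027. Genes that mark taste neurons were low, with 7 receptor genes (*Gr5a*, *Gr61a*, *Gr64a*, *Gr64f*, *Gr43a*, *Gr66a* and *Gr32a*) summing to between 3.43 and 6.84 CPM (counts scaled to a common library size) in a library. General neuron markers, such as *elav*, summed to between 10710 and 13960 CPM, and photoreceptor markers to between 22040 and 30670 CPM. Which cells of the head each receptor mRNA came from was not tested, and in such pooled samples fewer cells of a type and less RNA per cell cannot be told apart.

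Every receptor gene had at least 1 count in every library, and all 37 passed the filter on low counts. Their total counts over the 6 libraries ran from 79 for *CapaR*, the receptor of Capa peptides, to 5333 for *Pdfr*, the receptor of the clock neuron peptide Pdf. Mean levels were 10 CPM or more for 16 genes, between 1 and 10 CPM for 20 and under 1 CPM for *CapaR* alone, whereas 3 counts in a library corresponded to between 0.188 and 0.226 CPM. Summed CPM of the 37 genes was 583, 608 and 559 on CD + OSMI against 561, 509 and 508 on SD + OSMI, and the 8 most abundant genes held 59.8% of it. The diets overlapped, since replicate 4 lay just above replicate 3.

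To set the genes against each other, levels were divided by the length of their merged exons (CPM per kb). *AkhR*, the receptor of adipokinetic hormone and known for releasing stored fat and sugar from the fat body, stood highest at 15.4 ± 0.962 CPM per kb (SD over 6 libraries). *Lgr1*, a receptor of the glycoprotein hormone thyrostimulin, followed at 14.1 ± 0.786 CPM per kb, and *SPR*, which is activated by sex peptide and by the myoinhibitory peptides of *Mip*, at 13.1 ± 1.82 CPM per kb. *Pdfr* was at 12.6 ± 1.5 CPM per kb. Of the steps between neighbours among these 4 genes, the one from *AkhR* to *Lgr1* exceeded the larger SD of the pair, and that order held in 5 of 6 libraries. The SD does not hold the choice of length. Merged exons were 3182 bp for *AkhR* and 4668 bp for *Pdfr*, while their longest transcripts were 2781 bp and 3331 bp. The order of these genes therefore holds for merged exons only, and the order by longest transcript was not tested.

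A second group held *CrzR* (the corazonin receptor, 10.1 ± 0.970 CPM per kb), *sNPF-R* (the receptor of short neuropeptide F, 9.28 ± 0.883 CPM per kb), *Dh44-R2* (8.12 ± 0.780 CPM per kb) and *Dh31-R* (8.02 ± 0.611 CPM per kb), the last pair being class B receptors of diuretic hormones. After them came a step down to *Proc-R*, the proctolin receptor, at 5.71 ± 0.559 CPM per kb. The steps from *Pdfr* to *CrzR* and from *Dh31-R* to *Proc-R* were the only 2 of the 36 between neighbours that kept their order in all 6 libraries. In all, 6 of the 36 steps exceeded the larger SD of the pair, so most neighbours further down could not be told apart. The median of the 37 genes was 2.50 CPM per kb, and the highest exceeded the lowest by 32.2-fold. At the foot of the order stood *PK2-R2*, a receptor of the hugin peptide, at 0.496 ± 0.199 CPM per kb, the RYamide receptor gene *RYa-R* at 0.481 ± 0.184 and *CapaR* at 0.477 ± 0.196 CPM per kb.

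**Figure D1:**
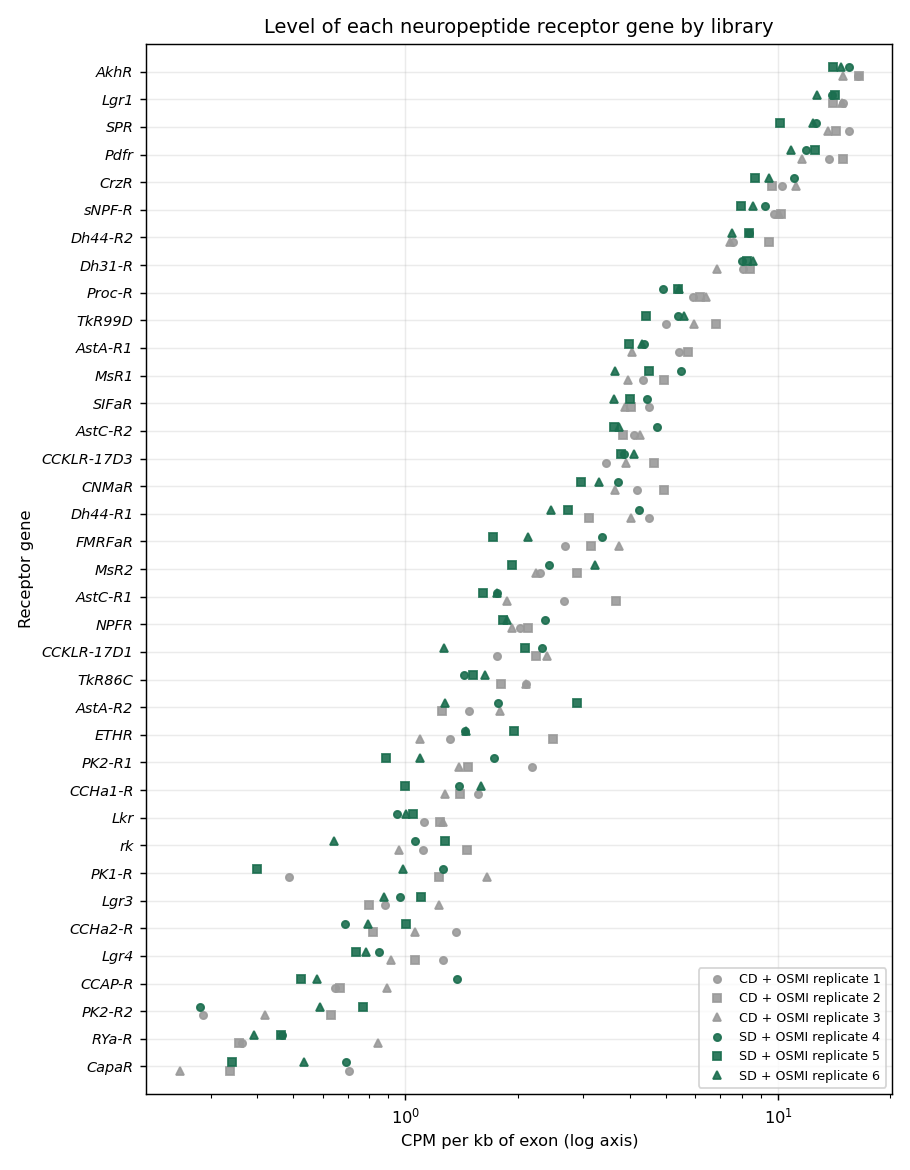
Level of each of the 37 receptor genes in each library, in CPM per kb of exon on a log axis, with genes ordered by their mean. Grey symbols are CD + OSMI replicates 1 to 3 and green symbols SD + OSMI replicates 4 to 6. *AkhR* (15.4 CPM per kb) heads the order and *CapaR* (0.477 CPM per kb) ends it, and the spread between replicates widens towards the genes with few counts.

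No receptor gene passed the test between the diets. At an adjusted p under 0.1 from edgeR's quasi-likelihood test, 0 of the 37 were higher on SD + OSMI, where 6.91% of all tested genes were, and 0 were lower, where 2.18% of all tested genes were. DESeq2 and limma-voom also called 0 of them. At an unadjusted p under 0.05, 0 receptor genes were higher (14.5% of all tested genes) and 3 were lower, or 8.11% (6.85% of all tested genes). The 3 were *SPR*, *sNPF-R* and *AstC-R1*. Log2 fold changes of SD + OSMI over CD + OSMI ran from −0.68 (*AstC-R1*) to 0.40 (*AstA-R2*), with SEs between 0.091 and 0.56.

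Most receptor genes lay slightly below 0. The log2 fold change was negative for 29 of 37 (78.4%, against 50.4% of all tested genes), with a median of −0.16 against −0.0027 for all tested genes. Scaling libraries to the neuron markers moved the median of all tested genes to 0.17, and 19 of 37 were then negative with a median of −0.0019. Relative to the median of all tested genes the receptor median was −0.16 before and −0.18 after this scaling. The scaling replaces library sizes only and shifts all genes by a similar amount, so this difference was bound to change little. General neuron markers were negative in 9 of 9 genes, with a median of −0.18, and receptors of small transmitters in 21 of 24, with a median of −0.17. Glia markers were negative in 7 of 8 (median −0.076) and photoreceptor markers in 5 of 6 (−0.10). Muscle markers were negative in 1 of 6 (0.092) and gut markers in 3 of 7 (0.58). The class A genes had a median of −0.16, the class B genes −0.10 and the LGR genes −0.17.

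The diets did not overlap for 7 receptor genes, all of them lower on SD + OSMI (18.9%, against 10.3% of all tested genes), and for 0 that were higher (14.5% of all tested genes). *SPR* (FBgn0029768, chromosome X, 5446656 to 5494012, plus strand) had the smallest p of the 37. Its level was 57.8, 53.2 and 50.6 CPM on CD + OSMI against 47.2, 37.9 and 46.4 CPM on SD + OSMI. Replicate 5 was the lowest library, and the 3 sugar libraries all lay under the 3 control libraries. Its log2 fold change was −0.30 (SE 0.10, 95% interval −0.52 to −0.08, unadjusted p = 0.012, adjusted p = 0.116). The exons of *frma* on the other strand cover 26.8% of those of *SPR*, and since the strand setting of the counting is not given in the sources used here, reads of the 2 genes may not be separated there. *frma* itself had a log2 fold change of −0.08 (SE 0.11).

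*sNPF-R* (FBgn0036934, chromosome 3L, 20058511 to 20089007, minus strand) encodes the receptor of a peptide that promotes feeding. Its 6 libraries read 46.4, 48.3 and 47.6 CPM on CD + OSMI against 43.7, 37.7 and 40.6 CPM on SD + OSMI. The control libraries were within 2 CPM of each other and all above the sugar libraries. The log2 fold change was −0.22 (SE 0.094, 95% interval −0.42 to −0.02, unadjusted p = 0.034, adjusted p = 0.191). The gene of its peptide, *sNPF*, was at 68.1 ± 6.56 CPM on CD + OSMI against 66.4 ± 3.66 CPM on SD + OSMI (SD, n = 3 per diet).

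*AstC-R1* (FBgn0036790, chromosome 3L, 18560258 to 18576326, plus strand), 1 of 2 receptors of allatostatin C, had the lowest log2 fold change. It was at 7.74, 10.7 and 5.45 CPM on CD + OSMI against 5.13, 4.69 and 5.11 CPM on SD + OSMI. The control libraries were scattered while the sugar libraries were tight, and replicate 3 lay just above them. The log2 fold change was −0.68 (SE 0.25, 95% interval −1.21 to −0.14, unadjusted p = 0.016, adjusted p = 0.134) and −0.40 without CD + OSMI replicate 2. The other allatostatin C receptor gene, *AstC-R2*, nearby on the same arm, was at 15.3, 14.3 and 15.9 CPM and at 17.7, 13.6 and 14.0 CPM, with overlapping diets.

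The other 4 genes without overlap had intervals that held 0. *Proc-R* was at 22.4, 23.4 and 24.2 CPM on CD + OSMI against 18.6, 20.4 and 20.5 CPM on SD + OSMI, or −0.23 on the log2 scale (SE 0.12). *TkR86C*, the natalisin receptor gene, went from 6.78, 5.83 and 6.81 CPM to 4.62, 4.88 and 5.26 CPM (−0.40, SE 0.22). *Lkr*, the receptor of leucokinin, a peptide of water balance and meal size, was at 3.29, 3.63 and 3.70 CPM and at 2.79, 3.07 and 2.93 CPM (−0.27, SE 0.28). In each of these 3 the lowest control library lay above the highest sugar library. *Lgr4* was at 3.74, 3.15 and 2.72 CPM and at 2.53, 2.19 and 2.33 CPM (−0.45, SE 0.31), from 252 counts in all, and 29.2% of its exons are overlapped by *CG12096* on the other strand.

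**Figure D2:**
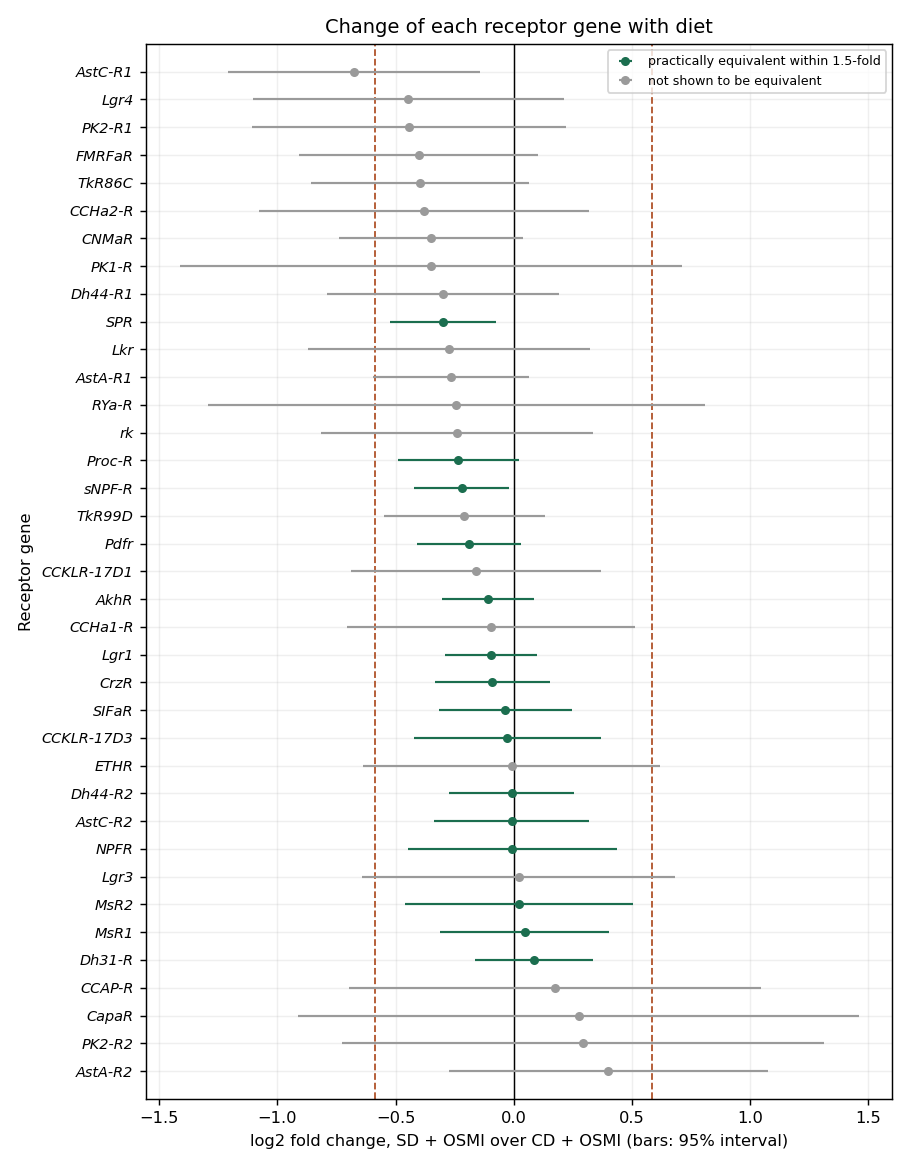
Log2 fold change of each receptor gene, SD + OSMI over CD + OSMI, with its 95% interval from edgeR, in order of the change. The dashed lines mark 1.5-fold in either direction and green marks the 15 genes that were practically equivalent. The points run from −0.68 (*AstC-R1*) to 0.40 (*AstA-R2*), and 3 intervals (*AstC-R1*, *SPR* and *sNPF-R*) leave out 0.

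A p that misses the threshold does not show that a gene stayed the same, so the test of practical equivalence used in the study was applied, in which the null hypothesis is a change of more than 1.5-fold (0.585 on the log2 scale). At q under 0.05, 15 of the 37 receptor genes (40.5%) were equivalent between the diets, against 47.1% of all tested genes. They were *AkhR*, *Lgr1*, *SPR*, *Pdfr*, *CrzR*, *sNPF-R*, *Dh44-R2*, *Dh31-R*, *Proc-R*, *MsR1*, *SIFaR*, *AstC-R2*, *CCKLR-17D3*, *MsR2* and *NPFR*. All had at least 591 counts over the 6 libraries, and the 9 with the highest level per kb were all among them. For the other 22 neither a change nor the lack of one larger than 1.5-fold was shown. Without SD + OSMI replicate 6 the number of equivalent genes was 9.

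Equivalence within 1.5-fold does not mean that a gene was unchanged. *SPR* and *sNPF-R* were equivalent although their intervals left out 0, and the diets did not overlap for these genes or for *Proc-R*. The highest library of *SPR* exceeded its lowest by 1.53-fold. The other equivalent genes had overlapping diets. *AkhR* was at 52.3, 52.3 and 47.6 CPM on CD + OSMI against 49.3, 44.6 and 47.0 CPM on SD + OSMI, and its 95% interval ran from 0.809-fold to 1.06-fold. Its highest library exceeded its lowest by 1.17-fold. *Lgr1* was at 48.0, 45.1 and 47.9 CPM and at 44.9, 45.8 and 41.1 CPM, with an interval from 0.816-fold to 1.07-fold. *Pdfr* was at 64.1, 69.7 and 54.2 CPM and at 55.5, 58.6 and 50.7 CPM (0.752-fold to 1.02-fold). For each of these 3 genes at least 1 sugar library exceeded a control library.

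*CrzR*, whose peptide corazonin acts in stress and feeding, was at 33.2, 31.3 and 36.2 CPM on CD + OSMI against 35.8, 28.1 and 30.7 CPM on SD + OSMI, with an interval from 0.793-fold to 1.11-fold. *Dh31-R* was at 26.5, 27.6 and 22.5 CPM and at 26.3, 27.0 and 28.1 CPM (0.894-fold to 1.26-fold). *SIFaR*, the receptor of the SIFamide peptide of feeding and courtship, was at 22.6, 20.2 and 19.5 CPM and at 22.4, 20.1 and 18.3 CPM (0.803-fold to 1.19-fold). Each of these 3 had sugar libraries on both sides of control libraries. *NPFR*, the receptor of the hunger peptide NPF, was lower in abundance, at 6.52, 6.86 and 6.22 CPM and at 7.60, 5.88 and 6.02 CPM, or −0.0060 on the log2 scale (SE 0.21).

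Several peptide genes have a pair of receptor genes, and levels per kb within a pair differed in the same direction in nearly all libraries. For diuretic hormone 44, *Dh44-R2* exceeded *Dh44-R1* in 6 of 6 libraries, by 1.68-fold to 3.06-fold. *Dh44-R1* was at 11.2, 7.68 and 9.98 CPM on CD + OSMI against 10.5, 6.76 and 6.09 CPM on SD + OSMI, and *Dh44-R2* at 24.8, 31.0 and 24.4 CPM and at 27.5, 27.4 and 24.7 CPM. Of the exons of *Dh44-R2*, 33.2% are overlapped on the other strand by *CG34234* and by *fdl*, a gene at 103 CPM, so its level is uncertain. For allatostatin C, *AstC-R2* exceeded *AstC-R1* in 6 of 6 libraries, by 1.05-fold to 2.69-fold. The ratio was 1.05 to 2.28 on CD + OSMI against 2.13 to 2.69 on SD + OSMI, so the diets overlapped.

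For allatostatin A, *AstA-R1* exceeded *AstA-R2* in 6 of 6 libraries, by 1.37-fold to 4.58-fold. *AstA-R1* was at 20.1, 21.3 and 15.0 CPM on CD + OSMI against 16.2, 14.7 and 16 CPM on SD + OSMI. *AstA-R2* was at 3.48, 2.95 and 4.21 CPM and at 4.18, 6.82 and 3.01 CPM. Replicate 5 was its highest library, and the log2 fold change, the highest of the 37 at 0.40 (SE 0.32), was 0.022 without it. For the cholecystokinin-like peptide drosulfakinin, a satiety signal, *CCKLR-17D3* exceeded *CCKLR-17D1* in 6 of 6 libraries, by 1.63-fold to 3.23-fold. *CCKLR-17D3* was at 7.68, 10.3 and 8.69 CPM and at 8.61, 8.45 and 9.18 CPM, and *CCKLR-17D1* at 5.61, 7.13 and 7.65 CPM and at 7.41, 6.70 and 4.06 CPM.

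For the myosuppressin pair, *MsR1* exceeded *MsR2* in 6 of 6 libraries, by 1.13-fold to 2.33-fold. *MsR1* was at 15.4, 17.6 and 14.0 CPM on CD + OSMI against 19.5, 16 and 12.9 CPM on SD + OSMI, and *MsR2* at 6.71, 8.43 and 6.55 CPM and at 7.09, 5.63 and 9.40 CPM. Both had overlapping diets and both were practically equivalent. The hugin receptors were lower, with *PK2-R1* at 6.0, 4.05 and 3.83 CPM and at 4.75, 2.44 and 3.01 CPM, and *PK2-R2* at 0.839, 1.85 and 1.23 CPM and at 0.823, 2.25 and 1.73 CPM. *PK2-R1* exceeded *PK2-R2* in 6 of 6 libraries, by 1.15-fold to 7.62-fold, from 131 counts of *PK2-R2* in all. The pair that reads products of *Capa* was the only one whose order turned in a library. *PK1-R* was at 1.23, 3.09 and 4.15 CPM and at 3.17, 1.0 and 2.48 CPM, and exceeded *CapaR*, at 1.29, 0.617 and 0.454 CPM and at 1.27, 0.626 and 0.978 CPM, in 5 of 6 libraries per kb.

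The remaining receptor genes had intervals that held both 0 and, on at least 1 side, a change of 1.5-fold, except *TkR99D*, the tachykinin receptor gene, whose interval stayed inside 1.5-fold (log2 fold change −0.21, 95% interval −0.55 to 0.13) but which did not pass the equivalence test. They were *CCAP-R*, *CCHa1-R*, *ETHR*, *rk*, *Lgr3* and *RYa-R*, together with *CNMaR*, *CCHa2-R* and *FMRFaR*, which are given below with their peptides. In 3 of them, picked after their values were seen, 1 library lay above the rest. *CCAP-R*, the receptor of crustacean cardioactive peptide, was at 4.11 CPM in SD + OSMI replicate 4 and between 1.56 and 2.66 CPM in the others, and its log2 fold change of 0.18 (SE 0.41) was −0.40 without that replicate. *ETHR*, the ecdysis-triggering hormone receptor gene, was at 11.2 CPM in CD + OSMI replicate 2 and between 4.93 and 8.82 CPM in the others, and its log2 fold change of −0.0094 (SE 0.29) was 0.43 without it. *TkR99D* was between 12.8 and 19.7 CPM, *CCHa1-R*, a receptor of the gut and brain peptide CCHamide-1, between 2.63 and 4.21 CPM, and *RYa-R* at 1.95 CPM in CD + OSMI replicate 3 and between 0.823 and 1.08 CPM in the others. The log2 fold change of *RYa-R*, −0.24 (SE 0.49), was 0.29 without that replicate. *rk*, the bursicon receptor gene, was between 3.46 and 7.89 CPM. *Lgr3*, a receptor of the relaxin-like peptide Ilp8, was between 2.40 and 3.70 CPM, and 34.5% of its exons are overlapped on the other strand, as are 9.8% of those of *rk* and 1.2% of those of *RYa-R*.

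Leaving out SD + OSMI replicate 4 changed the calls. Without it 3 of 37 receptor genes were lower at an adjusted p under 0.1. They were *FMRFaR* (−0.72, adjusted p = 0.034), *SPR* (−0.34, adjusted p = 0.051) and *sNPF-R* (−0.26, adjusted p = 0.089). Of all 11915 tested genes, the number lower rose from 260 to 803 and the number higher from 823 to 1644. The rise in calls was thus general and not particular to the receptor genes. Leaving out any of the other 5 libraries gave 0 calls among the receptor genes. Of the 3 sugar libraries, replicate 4 had the sums of testis, accessory gland and fat body markers nearest to the control libraries. The 21 testis and sperm markers summed to 1787, 1180 and 1694 CPM on CD + OSMI against 2162, 3601 and 3057 CPM on SD + OSMI, with 11 of 21 higher in the test. The 13 tested accessory gland markers had 9 higher, and the 14 in the list summed to 90.9, 57.1 and 67.0 CPM and to 110, 215 and 156 CPM. Fat body markers, with 3 of 5 lower, summed to 8905, 11110 and 9415 CPM and to 7800, 6301 and 6356 CPM. Most of that sum was *apolpp*, at a mean of 7218 CPM. Its log2 fold change was −0.39, against −6.6 for *Lsp2* and −1.3 for *Lsp1beta*. *bmm* was at −0.11 and practically equivalent, and *Fbp1*, from 58 counts, at 1.3, so the list members did not move alike. Neuron markers summed to 12850, 13960 and 12400 CPM and to 13190, 10710 and 10960 CPM, so replicates 5 and 6 were the lowest here as well. Photoreceptor markers (23820, 30670 and 24700 CPM, then 26040, 22040 and 26400 CPM) and muscle markers (2373, 2456 and 2829 CPM, then 2751, 2715 and 2746 CPM) did not set replicate 4 nearest to the controls. The part of these tissues in the receptor values was not tested.

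The genes of the peptides themselves gave 2 calls. Of 34 peptide genes listed, 32 were matched and 22 passed the filter on low counts, so 9.09% of those tested were called, as were 9.09% of all tested genes. Their median log2 fold change was 0.042. *CNMa*, which encodes the CNMamide peptide, was higher on SD + OSMI, with 58, 60 and 50 counts on CD + OSMI against 172, 131 and 126 counts on SD + OSMI. In CPM it was at 3.70 ± 0.438 and 9.52 ± 1.35 (SD, n = 3 per diet), or 1.36 on the log2 scale (SE 0.22, adjusted p = 0.0054). *CCHa2*, which encodes a nutrient-dependent hormone of the fat body and gut, was lower, with 886, 919 and 904 counts and 643, 551 and 448 counts. It was at 59.6 ± 3.05 CPM and 36.3 ± 3.84 CPM (SD, n = 3 per diet), or −0.71 on the log2 scale (SE 0.10, adjusted p = 0.0026). Neither gene had overlapping diets, and both kept their calls under each alternative that was run. The fat body and accessory gland sums above also differed between the diets. Within SD + OSMI, *CNMa* was at 10.9, 8.20 and 9.48 CPM, highest in replicate 4, where the accessory gland sum was lowest. *CCHa2* was at 40.7, 34.5 and 33.7 CPM there, highest in replicate 4, where the fat body sum was highest. The part of these tissues in the 2 changes was not tested.

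The receptors of both peptides did not pass the test. *CNMaR* was at 11.3, 13.4 and 9.86 CPM on CD + OSMI against 10.1, 8.01 and 8.95 CPM on SD + OSMI, and its log2 fold change was −0.35 (SE 0.18, adjusted p = 0.286). Its diets overlapped, since replicate 4 lay above replicate 3. The ratio of *CNMa* to *CNMaR* in CPM was 0.331, 0.308 and 0.329 on CD + OSMI against 1.08, 1.02 and 1.06 on SD + OSMI, so the ratio did not overlap between the diets. *CCHa2-R* was at 4.00, 2.40 and 3.11 CPM and at 2.03, 2.94 and 2.33 CPM (−0.38, SE 0.33, adjusted p = 0.543). The ratio of *CCHa2* to *CCHa2-R* was 14.3, 26.3 and 18.8 and then 20.1, 11.7 and 14.5, with overlapping diets. Ratios between genes hold their exon lengths too, the pairs were picked after the values were seen, and the difference between a peptide gene's change and its receptor's was not tested.

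*FMRFa* and its receptor gene *FMRFaR*, also picked after their values were seen, lay on opposite sides of 0. *FMRFa* was at 1.29, 0.754 and 0.519 CPM on CD + OSMI against 1.65, 2.44 and 1.43 CPM on SD + OSMI, with no overlap, or 1.10 on the log2 scale (SE 0.47, unadjusted p = 0.034, adjusted p = 0.191) and 123 counts in all. *FMRFaR* was at 11.3, 13.3 and 15.8 CPM and at 14.2, 7.26 and 9.02 CPM, or −0.40 on the log2 scale (SE 0.23, adjusted p = 0.352). Its replicate 4 lay among the control libraries while replicates 5 and 6 lay below them. Neither gene passed the test with all 6 libraries.

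**Figure D3:**
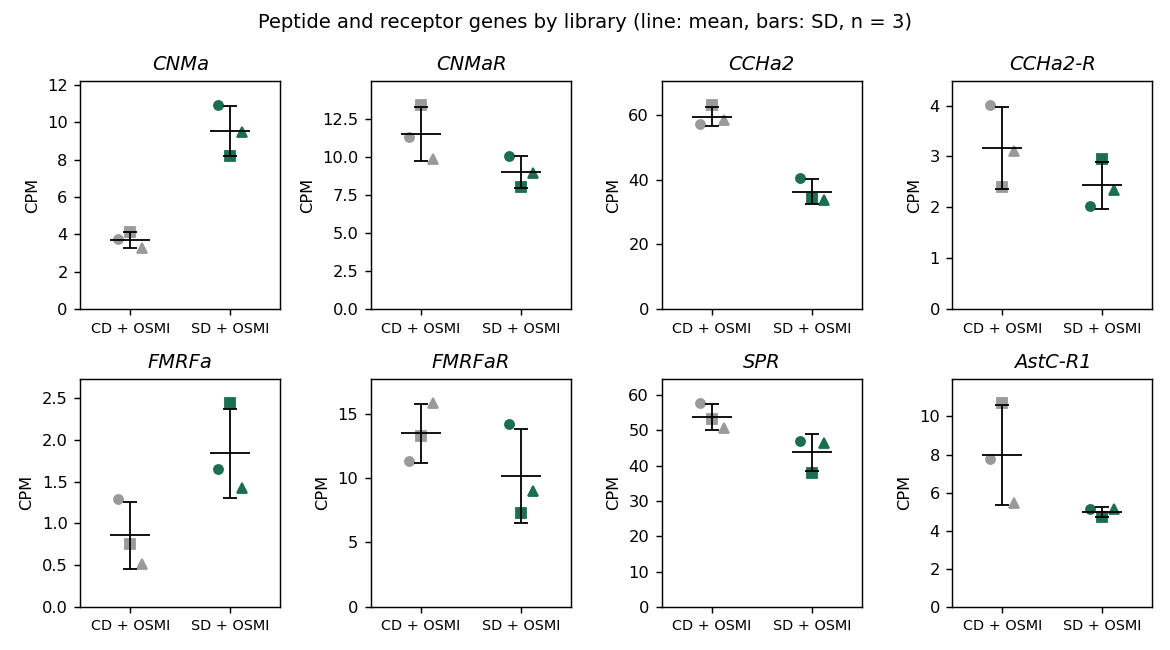
CPM of 3 peptide genes and their receptor genes, and of *SPR* and *AstC-R1*, in each library. Grey symbols are CD + OSMI replicates and green symbols SD + OSMI replicates, the horizontal line is the mean and the bars are the SD of 3 replicates. *CNMa* is higher on SD + OSMI (3.70 and 9.52 CPM) and *CCHa2* lower (59.6 and 36.3 CPM), while *CNMaR*, *CCHa2-R* and *FMRFaR* overlap between the diets.

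The peptide genes of other abundant receptors did not pass the test or the filter on low counts. *Akh*, made by endocrine cells of the corpora cardiaca, had 19 counts over the 6 libraries (0.402 CPM per kb) and was not tested. *Pdf* was at 4.31 ± 1.65 CPM on CD + OSMI against 4.55 ± 1.41 CPM on SD + OSMI (SD, n = 3 per diet). *Mip* was at 5.58 ± 0.862 CPM and 5.83 ± 1.21 CPM, and *SP*, the sex peptide gene of the accessory gland, at 1.13 ± 0.656 CPM and 1.99 ± 1.18 CPM (SD, n = 3 per diet). *Dh44* was at 19.1, 16.3 and 17.8 CPM and at 14.2, 13.9 and 14.9 CPM, without overlap (log2 fold change −0.31, SE 0.14, adjusted p = 0.214). *Gpb5*, a peptide gene of *Lgr1*, did not overlap either, from 135 counts in all. It was at 2.07, 1.85 and 1.75 CPM and at 1.08, 0.876 and 1.35 CPM (−0.78, SE 0.40, adjusted p = 0.286). *RYa*, the gene of the RYamides, and *Pburs*, a bursicon subunit gene, had 0 counts in every library, where 3 counts would correspond to at most 0.226 CPM. This limit covers counting error only.

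Genes for making peptides, genes downstream of the receptors and receptors of small transmitters gave 4 calls, all lower on SD + OSMI. In that order the lists had 11.1%, 3.57% and 8.33% of their tested genes called. Of all tested genes, 9.09% were called in either direction and 2.18% were called lower. Each list's share rests on 1 or 2 genes, so an excess of calls was not shown. Of 9 tested genes for making and releasing peptides, 9 were negative (median −0.12) and 1 passed the test, *Cadps*, which primes dense-core vesicles for release. It was at 444, 452 and 447 CPM on CD + OSMI against 401, 322 and 342 CPM on SD + OSMI, or −0.34 on the log2 scale (SE 0.093, adjusted p = 0.061). Of 28 genes for G proteins, cyclases, kinases, phospholipases and arrestin downstream of the receptors, 25 were negative (median −0.13) and 1 passed, the adenylyl cyclase gene *Ac3*. It was at 87.0, 79.3 and 86.8 CPM and at 77.4, 66.1 and 61.7 CPM (−0.30, SE 0.096, adjusted p = 0.087). Of 24 receptor genes for small transmitters, 2 passed, the dopamine receptor gene *Dop2R* (−0.32, SE 0.10, adjusted p = 0.087) and the glutamate receptor gene *mGluR* (−0.31, SE 0.092, adjusted p = 0.070). None of these 4 calls held with libraries scaled to the neuron markers, where their log2 fold changes were −0.17, −0.14, −0.16 and −0.15. That scaling moved the median of all tested genes as given above. It also cut the calls over all tested genes, from 260 to 15 lower and from 823 to 96 higher. Of the 15 alternatives run, the call was lost in 6 for *Cadps*, 8 for *Ac3*, 7 for *Dop2R* and 7 for *mGluR*. All 28 transducer genes and all 24 small-transmitter receptor genes were practically equivalent within 1.5-fold, as were 47.1% of all tested genes. The difference between these lists and the neuropeptide receptors was not tested, and the median SE was 0.093 for the transducers and 0.23 for the neuropeptide receptors.

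**Figure D4:**
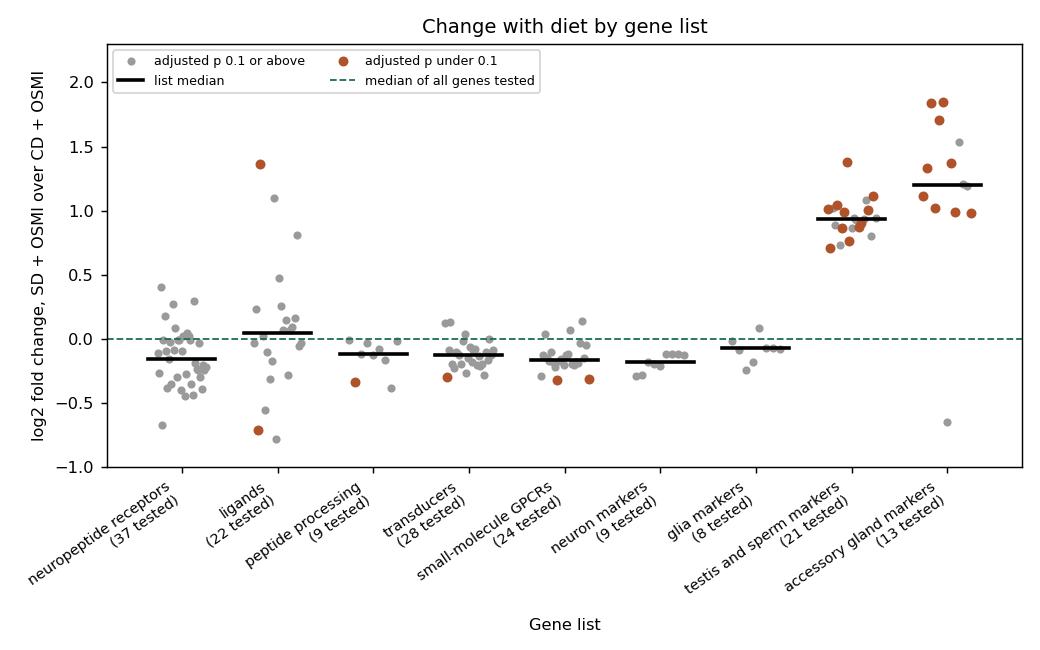
Log2 fold change of every tested gene in 9 lists, SD + OSMI over CD + OSMI, with the list median as a black bar and the median of all tested genes as a dashed line. Orange points passed the test at an adjusted p under 0.1. The 37 neuropeptide receptors (median −0.16) sit near the neuron markers (median −0.18) with 0 orange points, while testis markers (median 0.94) and accessory gland markers (median 1.2) lie above 0 except for 1 accessory gland gene.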

How the data were processed

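Libraries were made by the authors with the Ovation SoLo system and sequenced on a NextSeq instrument. Per the methods, the authors dropped low-quality reads before mapping to BDGP6 with STAR, used SAMtools 1.4 and deposited the values used here, raw HTSeq counts per gene with no normalization, and tested them with DESeq2 1.18.0. The strand setting and annotation release are not given in the sources used here. The labels call the replicates biological, each of 300 pooled heads, and give no batch.

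Counts were analysed with edgeR 4.0.16 (TMM factors, robust quasi-likelihood F test, diet only, a minimum of 10 counts in 3 or more libraries, Benjamini-Hochberg over 11915 genes, adjusted p under 0.1) in R 4.3.3, with limma 3.58.1 and DESeq2 1.42.0 as alternatives, and with matplotlib 3.10.9, numpy 2.4.6 and pandas 2.3.3 (Python 3.11.15). CPM are TMM-normalized. Symbols, positions and merged exon lengths came from the Ensembl release 115 annotation of BDGP6, which named 17215 of 17489 genes, and the authors' release may differ. An SE is the size of the log2 fold change divided by the square root of F. Practical equivalence used DESeq2's log2 fold changes and SEs. The common biological coefficient of variation was 0.15. Tests were checked on simulated counts.

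Members, lists and tests were chosen with earlier results of these data known. Values in every library are given for receptor genes at an unadjusted p under 0.05, without overlap between the diets, among the 10 highest in mean CPM or sharing a peptide gene with another. Of the list entries 6 matched no gene by symbol (*Gpa2*, *Nts*, *Phm*, *Pal1*, *para* and *wupA*). Input libraries, flies without OSMI, *Pcl* mutants, DamID and behavior were not analysed here.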

Additional observations from a re-analysis of the deposited data

How the results depend on the processing

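The precision rests on 3 libraries per diet and on 79 to 5333 counts per receptor gene. Taken over all genes together, replicates differed by more than counting noise, which was not worked out for the receptor genes alone. No receptor gene was higher under any alternative. The number lower was 1 with RLE factors (*SPR*, adjusted p = 0.097), 1 with no filter (*SPR*, adjusted p = 0.082), between 0 and 3 when 1 library was left out, and 0 with DESeq2, limma-voom, upper-quartile factors, the reproductive markers and 20 most abundant genes left out of the library size, neuron-marker scaling, a minimum of 50 counts or an adjusted p under 0.05. The number practically equivalent was 28 at a limit of 2-fold, 0 at a limit of 25% and between 9 and 13 when 1 library was left out. Over all tested genes, 96 were higher and 15 lower with neuron-marker scaling and 310 and 90 at an adjusted p under 0.05, and leaving out 1 library gave 45 to 1644 higher and 37 to 803 lower. Of the peptide, processing, transducer and small-transmitter receptor genes, 5 were lower, against 8 with DESeq2, 3 with limma-voom, 1 with neuron-marker scaling, 1 at an adjusted p under 0.05 and between 1 and 24 when 1 library was left out.

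The log2 fold change kept its sign under all alternatives for 18 receptor genes. With neuron-marker scaling it turned for *AkhR* (0.064), *AstC-R2* (0.15), *CCHa1-R* (0.075), *CrzR* (0.071), *Dh44-R2* (0.17), *CCKLR-17D3* (0.16), *ETHR* (0.20), *Lgr1* (0.078), *NPFR* (0.16) and *SIFaR* (0.13), and with limma-voom for *Dh44-R2* (0.0039), *ETHR* (0.085) and *MsR2* (−0.011). With 1 library left out it ran across 0 for *AstC-R2* (−0.13 to 0.064), *CapaR* (−0.0027 to 0.83), *CCAP-R* (−0.40 to 0.42), *CCHa1-R* (−0.25 to 0.076), *Dh44-R2* (−0.071 to 0.11), *CCKLR-17D1* (−0.31 to 0.053), *CCKLR-17D3* (−0.12 to 0.095), *ETHR* (−0.23 to 0.43), *PK1-R* (−0.71 to 0.041), *PK2-R2* (−0.045 to 0.63), *Lgr3* (−0.098 to 0.23), *MsR1* (−0.098 to 0.18), *MsR2* (−0.18 to 0.19), *NPFR* (−0.12 to 0.062), *SIFaR* (−0.099 to 0.033) and *RYa-R* (−0.45 to 0.29). None of these genes was called in any of those fits, and the cause of the changes was not tested. No paired analysis was possible because the diets share no replicate numbers.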
